A study of Ovis aries with 12 samples.

Results

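The genes described here encode subunits of the mitochondrial respiratory chain and of ATP synthase, measured as mRNA in the sheep hippocampus. They were taken from the count table by symbol: NDUFA, NDUFB, NDUFC, NDUFS and NDUFV genes of complex I, the SDH genes of complex II, UQCR genes and CYC1 of complex III, COX subunit genes of complex IV, and the ATP5 genes of ATP synthase. This gave 60 of 33609 genes, made up of 36 of complex I, 4 of complex II, 1 of complex III (UQCRH), 1 of complex IV (COX5A) and 18 of ATP synthase. The grouping follows the symbols, so NDUFA4, now placed with complex IV, is counted with complex I. NDUFAB1 of complex I is compared below with related proteins, and no row carries the symbol NDUFB3. Other genes of complexes III and IV, and the subunits encoded by mitochondrial DNA, are not analysed here. Of the 60, 59 had enough counts to be tested. The remaining one was a row for ATP5MC1 (GeneID 443410), with 1, 2 and 10 counts in dorsal stress library 3, ventral control library 3 and ventral stress library 3 and 0 in the others.

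The animals were adult ewes of the French breed Ile-de-France, with 6 kept as controls and 6 exposed to chronic stress. For each region, RNA of a ewe was mixed in equal parts with that of 1 other ewe, which gave 3 libraries in each of the 4 groups and 12 in all. The groups were dorsal control, dorsal stress, ventral control and ventral stress, and both regions came from the same ewes. The form that the stress took is not given in the sources used here, nor is it stated whether the dorsal samples, whose names carry the prefix DG, were dentate gyrus alone. Each library averages a pair of ewes, so p-values measure the spread between pools, and they treat pools as independent although the regions share animals.

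Oxidative phosphorylation takes electrons from NADH at complex I and from succinate at complex II and passes them through ubiquinone, complex III and cytochrome c to complex IV, which reduces oxygen. Complexes I, III and IV pump protons across the inner mitochondrial membrane, and ATP synthase uses the proton gradient to make ATP. Neurons draw most of their ATP from this pathway, with much of it spent on ion pumping and synaptic transmission. Complexes I, III, IV and V combine nuclear and mitochondrial gene products, whereas all subunits of complex II are nuclear.

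Library totals ranged from 12254743 to 53775720 counts, and a level of 1 CPM, a gene's counts relative to its library's total, stands for 12.3 counts in the shallowest library. Levels below are CPM scaled with TMM factors, which ranged from 0.917 to 1.036. All 6 markers of hippocampal principal neurons, among them PROX1 and NEUROD2, passed the filter, with summed levels of 405 to 3185 CPM. Libraries of the same group stood apart from each other: after removal of the group means, the first component of variation among the other tested genes, called the residual factor below, held 63.4% of the variance. The libraries at its 2 ends were dorsal control 1 and 2, dorsal stress 1 and 3, ventral control 1 and 3, and ventral stress 2 and 3.

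The summed subunit mRNA level did not part the groups. It was 15240, 9831 and 10710 CPM in dorsal control libraries 1 to 3 and 14980, 9799 and 8903 CPM in dorsal stress libraries 1 to 3. In ventral tissue it was 17960, 13120 and 7537 CPM in control libraries 1 to 3 and 11550, 14620 and 8259 CPM in stress libraries 1 to 3. The 4 groups overlapped one another, with means of 11930 ± 2900, 11230 ± 3280, 12870 ± 5220 and 11480 ± 3180 CPM (SD, n = 3 each). Libraries of 1 group differed by more than the group means did. The highest library of a group stood 1.55-fold above the lowest in dorsal control, 1.68-fold in dorsal stress, 2.38-fold in ventral control and 1.77-fold in ventral stress. Complex I, complex II and ATP synthase each showed this spread, as the plot of summed levels by library shows.

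**Figure D1:**
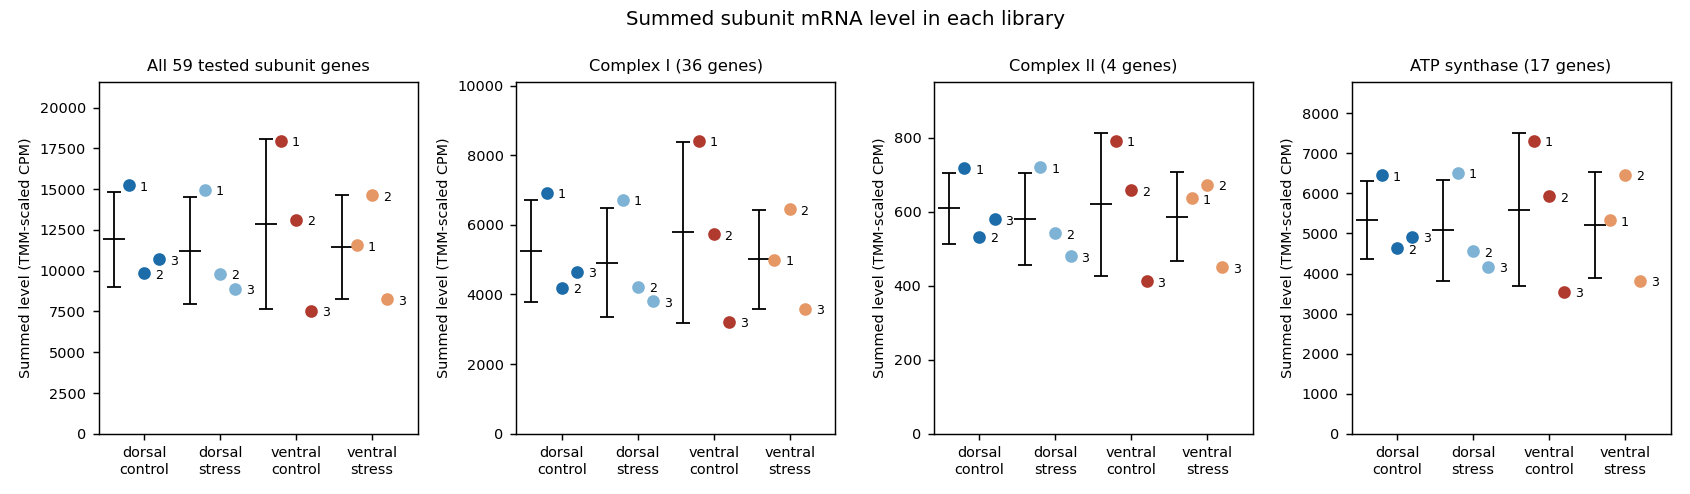
Summed level in TMM-scaled CPM (y axis) of all 59 tested subunit genes and of complex I, complex II and ATP synthase, with 1 point per library numbered within its group (x axis) and the group mean ± SD drawn to its left. The groups overlap in every panel, and ventral control holds both the highest (17960) and the lowest (7537) summed level.

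The comparison of the dorsal with the ventral hippocampus, averaged over both conditions, called no subunit gene in edgeR at an adjusted p under 0.05. The count was 0 of 59, where 4.51% of all tested genes were called. DESeq2 and limma-voom also called 0. The log2 fold changes, dorsal minus ventral, ran from -0.40 for NDUFS6 to 0.18 for NDUFB11, with standard errors (SE) of 0.10 to 0.63. Their median was -0.08, against -0.02 for all tested genes. Of the 59 values 43 were negative, but without 1 library at a time the median ran from -0.21 to 0.13 and changed sign for 3 of the 12 libraries. The SE, with a median of 0.29, are too wide to tell small regional differences of a typical member from none.

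NDUFB5 (GeneID 101108008), an accessory subunit of the membrane arm of complex I, had the smallest p of the comparison. NDUFB5 stood at 95.9, 94.4 and 102 CPM in dorsal control and at 106, 95 and 94.4 CPM in dorsal stress. In ventral tissue it was 156, 109 and 106 CPM in control and 119, 120 and 112 CPM in stress. It was the only member whose 6 dorsal libraries all lay below the 6 ventral ones, as 4.90% of all tested genes did in one direction or the other. The highest dorsal and the lowest ventral library were 105.52 and 105.63 CPM, and with RLE size factors they overlapped, at 106.04 and 104.71 CPM. The fold change was -0.30 ± 0.12 on the log2 scale (SE, edgeR adjusted p = 0.28), which misses the threshold. It was also the only member at an unadjusted p under 0.05, a level that 13.7% of all tested genes passed.

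The next members by p were NDUFA5, an accessory subunit of the matrix arm of complex I, and NDUFS1, the largest core subunit, which carries iron-sulfur clusters. NDUFA5 stood at 61.5, 69.4 and 65.4 CPM in dorsal control, 57.3, 72.0 and 80.0 in dorsal stress, 64.4, 72.2 and 89.1 in ventral control and 70.5, 93.4 and 89.6 in ventral stress. Its dorsal and ventral libraries overlapped, with a log2 fold change of -0.24 ± 0.14 (edgeR adjusted p = 0.564). NDUFS1 differed by -0.26 ± 0.21 (edgeR adjusted p = 0.817) and the accessory subunit NDUFA12 by -0.29 ± 0.28 (edgeR adjusted p = 0.91). ATP5F1B, the catalytic beta subunit of ATP synthase, differed by -0.13 ± 0.17 (edgeR adjusted p = 0.977). Of other members, whose unadjusted p in edgeR ran from 0.518 to 0.636, COX5A, a subunit of cytochrome c oxidase, had a log2 fold change of -0.36 ± 0.61, ATP5MD, which the RefSeq table names ATP5MK, -0.23 ± 0.38, and the complex I subunits NDUFB2 and NDUFB8 -0.11 ± 0.16 and -0.15 ± 0.22. Values on the dorsal side were 0.16 ± 0.28 for ATP5F1E, the epsilon subunit of the ATP synthase central stalk, and 0.10 ± 0.21 for NDUFV3. None of these passed the threshold.

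Within one condition the counts were also 0. Control ewes had 0 of 59 members called between the regions in edgeR, where 1.00% of all genes were, and 0 at an unadjusted p under 0.05, where 8.67% were, with a median log2 fold change of -0.13 against -0.04 for all genes. Stressed ewes had 0 of 59, where 0.444% of all genes were called, and 0 at an unadjusted p under 0.05, where 7.86% were, with a median of -0.02 against 0.01. NDUFB5 was the only member whose regions did not overlap within either condition. For NDUFB5 this follows from its separation over all 12 libraries and is no further observation. Its log2 fold change was -0.35 ± 0.17 in control ewes (edgeR adjusted p = 0.668) and -0.25 ± 0.17 in stressed ewes (edgeR adjusted p = 1). Separation of the regions within a condition was seen for 11.7% of all genes in control and 13.7% in stressed ewes.

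**Figure D2:**
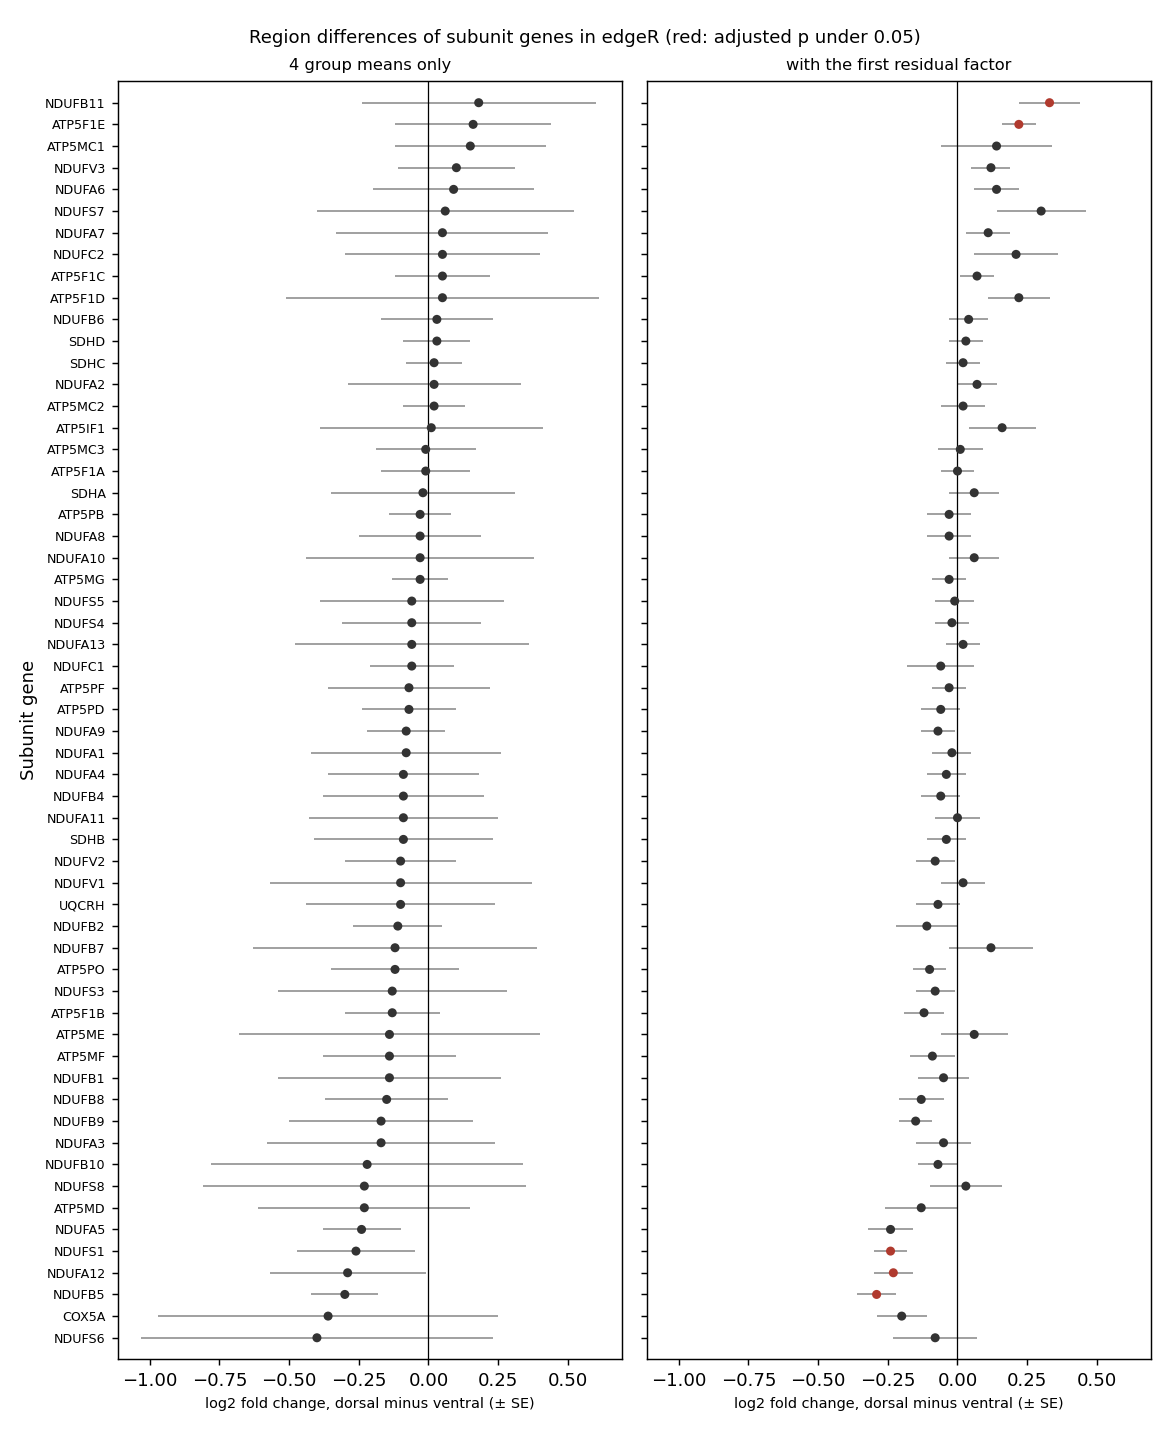
Log2 fold change, dorsal minus ventral over both conditions (x axis), of tested subunit genes (y axis) with its SE as bars, in edgeR with the 4 group means only (left) and with the residual factor as a covariate (right). On the left no gene passes an adjusted p of 0.05 and values run from -0.40 to 0.18; on the right the bars are shorter and 5 genes, in red, pass.

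With the residual factor as a covariate the SE fell to a median of 0.08 and 5 members were called between the regions, where 20.8% of all tested genes were. With all libraries 8.47% of members were called. NDUFS1, NDUFB5 and NDUFA12 were lower in dorsal tissue, by log2 fold changes of -0.24 ± 0.06, -0.29 ± 0.07 and -0.23 ± 0.07 (edgeR adjusted p = 0.0106, 0.0122 and 0.046), where 10.8% of all genes were called lower. ATP5F1E and NDUFB11, an accessory subunit of complex I, were higher, by 0.22 ± 0.06 and 0.33 ± 0.11 (edgeR adjusted p = 0.0266 and 0.0449), where 10.1% were called higher. In this fit NDUFB5 kept its call when each library was left out in turn, at -0.35 to -0.20 (edgeR adjusted p from 0.00455 to 0.0358). The other 4 did not: NDUFS1 and ATP5F1E lost the call without dorsal control 1, dorsal stress 1, ventral control 3 or ventral stress 3, NDUFB11 without 5 of the libraries and NDUFA12 without 7. The number of members called was 3 without dorsal stress 2 (5.08%, against 17.3% of all genes in that fit) and 8 without dorsal stress 1 or ventral stress 3 (13.6%, against 19% and 17.9%). It was 20 without ventral control 1 (33.9%, against 33.0%) and 25 without ventral control 3 (42.4%, against 22.1%). The share of members called lay below that of all genes in 10 of the 12 fits and above it without either of these ventral control libraries. The factor was computed from these same libraries and treated as known, so the SE hold no error of its estimation.

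No subunit gene was called between stressed and control ewes in either region. In dorsal tissue the count was 0 of 59, as 0% of all genes were called in edgeR (152 or 0.854% at an unadjusted p under 0.05, of which 1 was a member; DESeq2 1 gene and limma-voom 0). The median log2 fold change, stress minus control, was -0.09 against 0.01 for all genes. In ventral tissue the count was again 0 of 59, with 0% of all genes called (142 or 0.797% at an unadjusted p under 0.05, none a member; DESeq2 1 gene), and the median was -0.14 against -0.03. Values there ran from -0.59 to 0.21, with SE of 0.14 to 0.88. The test of whether the stress effect differed between regions called 0 of 59 members and 0% of all genes (46 or 0.258% at an unadjusted p under 0.05, none a member; DESeq2 0 genes), with a median difference of 0.09 against 0.05. The stress comparisons and this test share libraries.

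The member at an unadjusted p under 0.05 in dorsal stress was the second row for ATP5MC1 (GeneID 114108664), a gene for the c ring through which protons turn ATP synthase. It stood at 5.55, 2.72 and 2.46 CPM in dorsal control and at 7.66, 5.83 and 7.35 CPM in dorsal stress, groups that did not overlap. In ventral tissue it was 5.5, 3.67 and 3.39 CPM in control and 3.52, 6.80 and 4.26 CPM in stress, groups that did. The log2 fold change in dorsal tissue was 0.95 ± 0.39 (SE, edgeR adjusted p = 1). Several genes and many processed copies encode the c ring protein, how reads with several matches were counted is not given in the sources used here, and this row's values are uncertain for that reason. The other c ring genes, ATP5MC2 and ATP5MC3, stood at 110 ± 10.9 and 268 ± 33.5 CPM in dorsal control and 122 ± 4.16 and 254 ± 35.8 CPM in dorsal stress (SD, n = 3 each), and their libraries overlapped.

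SDHC, a membrane anchor of complex II, was the only other member whose dorsal control and stress libraries did not overlap, a separation seen for 5.13% of all genes. It stood at 93.1, 114 and 114 CPM in dorsal control and 121, 118 and 118 CPM in dorsal stress. In ventral tissue, where no member separated the conditions and 2.86% of all genes did, SDHC was at 104, 108 and 115 CPM in control and 121, 109 and 112 CPM in stress. Its values lay within a narrow band in every group, and the stress difference did not pass the test in either region.

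The largest differences among the libraries lay within the groups, and the subunits took part in them unequally. The SD of log2 CPM within groups had a median of 0.55 over members, from 0.10 for SDHC to 1.29 for NDUFS6. The median over all tested genes was 0.50, with 54.8% of them below the members' median. The median over the 10846 genes with a mean of at least 10 CPM was 0.39, and 69.5% of those genes lay below the members' median. Dorsal control 1 was the highest library of its group for 50 of 59 members, dorsal stress 1 for 51, ventral control 1 for 47 and ventral stress 2 for 49. The lowest library was dorsal control 2 for 48 members, dorsal stress 3 for 45, ventral control 3 for 50 and ventral stress 3 for 50. In bulk tissue, fewer cells of a type and less RNA per cell cannot be told apart.

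The difference between the 2 libraries at the ends of the residual factor, which was computed without the members, describes this spread gene by gene. It is given as a description with no test. Its median over members was 0.77 on the log2 scale in dorsal control, 0.87 in dorsal stress, 1.52 in ventral control and 1.03 in ventral stress, against -0.01, 0.01, -0.06 and -0.02 for all genes. More than 2-fold differences in that direction were found for 17, 26, 38 and 31 of 59 members, or 28.8%, 44.1%, 64.4% and 52.5%, against 11.3%, 16.2%, 25.2% and 14.6% of all genes. No member was more than 2-fold lower in any group. In all 4 groups 50 of 59 members were higher, as were 33.8% of all genes, and 3 members, NDUFS1, NDUFV2 and SDHD, were lower, as were 35.4% of all genes. With library totals alone in place of TMM these counts were 48 and 4, SDHC being the fourth, and the median of all genes moved by up to 0.17.

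**Figure D3:**
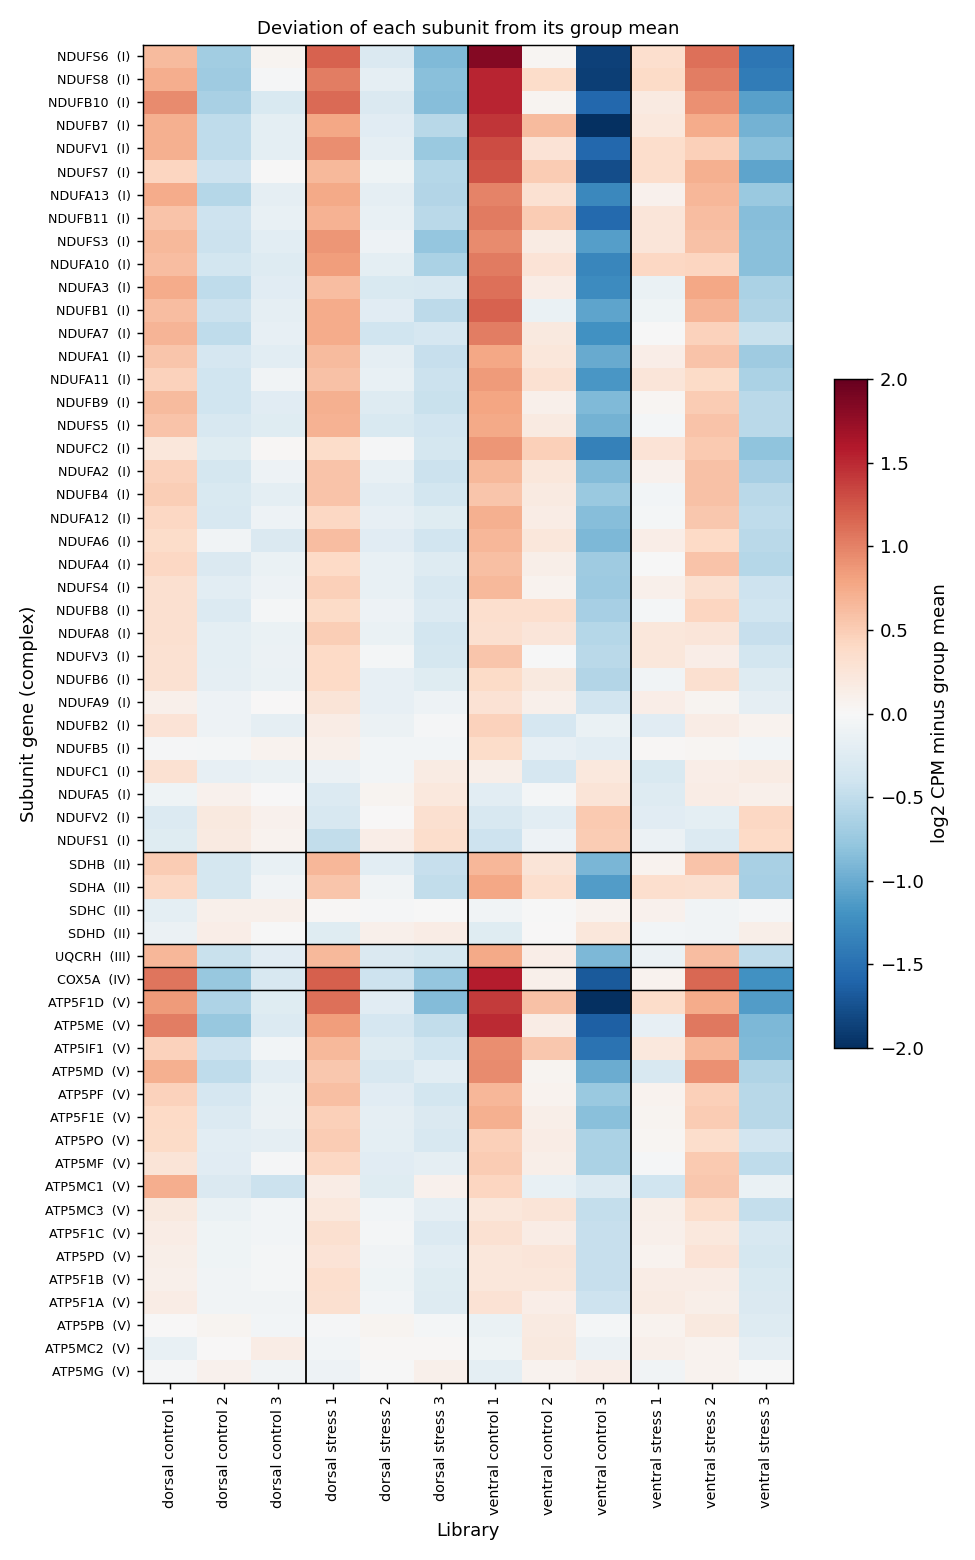
Deviation of log2 CPM from its group mean (color, red above and blue below, saturating at 2) for tested subunit genes (rows, by complex) in each of the 12 libraries (columns, by group). Most rows are red in dorsal control 1, dorsal stress 1, ventral control 1 and ventral stress 2, while NDUFS1, NDUFV2 and SDHD show the opposite colors and rows such as SDHC and ATP5MG stay pale.

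Of the 7 nuclear core subunits of complex I, the part of the enzyme shared with bacteria, 5 were higher and 2 lower in the libraries with the higher summed level. NDUFS8, an iron-sulfur subunit, stood at 104, 38.5 and 61.6 CPM in dorsal control, 105, 46.0 and 29.1 in dorsal stress, 154, 69.0 and 14.5 in ventral control and 75.2, 118 and 21.8 in ventral stress. NDUFV1, which binds NADH, stood at 264, 114 and 141 CPM, 260, 121 and 81.6 CPM, 366, 178 and 50.0 CPM, and 182, 200 and 80.4 CPM in the same 4 groups. Both were highest in the libraries with the highest summed level. NDUFV2, the partner of NDUFV1 in the NADH module, stood at 172, 239 and 222 CPM in dorsal control, 182, 230 and 284 in dorsal stress, 181, 196 and 325 in ventral control and 202, 206 and 314 in ventral stress. NDUFS1, of the same module, stood at 110, 148 and 137 CPM, 102, 157 and 183 CPM, 117, 146 and 223 CPM, and 155, 138 and 220 CPM. In dorsal control, dorsal stress and ventral control NDUFV2 and NDUFS1 were lowest in library 1, where NDUFV1 was highest. In ventral stress they were highest in library 3, where NDUFV1 was lowest. NDUFS7 and NDUFS3, of the same arm as NDUFS8, were higher in the same libraries as NDUFS8, with differences between the end libraries of ventral control of 3.03 and 2.05 on the log2 scale.

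Of the 29 accessory subunits counted with complex I by symbol, NDUFA4 among them, 27 were higher in the same 4 libraries. NDUFS6, a zinc-binding subunit of the matrix arm, had the widest spread of all members, at 44.8, 17.7 and 30.0 CPM in dorsal control and 61.4, 22.4 and 14.7 CPM in dorsal stress. It stood at 95.1, 27.5 and 7.28 CPM in ventral control, a 13.1-fold range, and at 41.3, 69.8 and 12.0 CPM in ventral stress. Nearby in spread were NDUFB10 and NDUFB7 of the membrane arm, with 8.56-fold and 11.2-fold ranges in ventral control. The narrowest ranges in that group were 1.38-fold for NDUFA5, 1.46-fold for NDUFC1, 1.48-fold for NDUFB5, 1.60-fold for NDUFA9 and 1.74-fold for NDUFB2. NDUFA5 and NDUFC1 were higher in only 1 of the 4 groups. NDUFA4, now placed with complex IV, was at 637, 454 and 255 CPM in ventral control, a 2.49-fold range.

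Complex II was split by role. Its catalytic subunits SDHA, the flavoprotein, and SDHB, the iron-sulfur protein, ranged 3.71-fold and 3.00-fold in ventral control, whereas the membrane anchors SDHC and SDHD ranged 1.10-fold and 1.38-fold. SDHA stood at 325, 190 and 232 CPM in dorsal control, 312, 201 and 151 in dorsal stress, 369, 273 and 99.4 in ventral control and 276, 271 and 138 in ventral stress. SDHD stood at 101, 119 and 108 CPM, 90.1, 115 and 119 CPM, 87.6, 104 and 121 CPM, and 106, 105 and 119 CPM in the same groups. SDHA was lowest in dorsal control 2, dorsal stress 3, ventral control 3 and ventral stress 3, and SDHD was highest of its group in each of these libraries.

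UQCRH, the hinge protein of complex III, stood at 835, 388 and 449 CPM in dorsal control, 760, 395 and 379 in dorsal stress, 964, 631 and 308 in ventral control and 452, 751 and 344 in ventral stress. COX5A stood at 309, 86.9 and 117 CPM, 260, 85.5 and 66.3 CPM, 487, 174 and 51.1 CPM, and 139, 294 and 57.0 CPM in the same groups. Both were highest in the library of each group in which the subunits summed highest. With 1 gene each, complexes III and IV cannot be described as a whole.

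Within ATP synthase the F1 head, which makes ATP, varied less than the delta subunit of the central stalk. ATP5F1B stood at 875, 770 and 793 CPM in dorsal control, 965, 720 and 649 in dorsal stress, 1010, 1010 and 624 in ventral control and 947, 949 and 689 in ventral stress. ATP5F1D, the delta subunit of the central stalk, stood at 394, 142 and 184 CPM, 373, 148 and 95.1 CPM, 441, 249 and 42.0 CPM, and 211, 274 and 75.6 CPM in the same groups. Its range in ventral control was 10.5-fold, against 1.63-fold for ATP5F1B. ATP5ME, a small subunit of the membrane domain, had an 8.74-fold range there, while ATP5MG, of the same domain, had one of 1.25-fold. ATP5IF1, the inhibitor that blocks ATP hydrolysis when the proton gradient collapses, stood at 317, 173 and 222 CPM in dorsal control, 338, 180 and 164 in dorsal stress, 365, 280 and 69.3 in ventral control and 237, 324 and 111 in ventral stress. It followed the majority of the subunits, with overlapping groups. The peripheral stalk ran from 1.24-fold for ATP5PB to 2.67-fold for ATP5PF in ventral control. The c ring gene ATP5MC2 was at 103, 126 and 101 CPM in ventral control, and ATP5MC3 at 295, 302 and 182 CPM.

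The order of the subunits by this difference was alike in the 4 groups. Spearman's rho over the 59 members between any pair of groups was 0.87 to 0.95, where it was 0.69 to 0.81 over all tested genes. The end libraries of each group were picked on 1 factor fitted over all 12 libraries, which by itself favours a like order between groups. The value over all genes includes genes at low counts. The groups share no library, but dorsal and ventral libraries share ewes, and genes are not independent replicates, so the values are given as a description.

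Ratios of counts between subunits of 1 complex do not depend on the scaling of the library. NDUFV1 to NDUFV2 was 1.53, 0.477 and 0.635 in dorsal control, 1.43, 0.524 and 0.287 in dorsal stress, 2.03, 0.911 and 0.154 in ventral control and 0.901, 0.968 and 0.256 in ventral stress. This 13.2-fold range lay within the groups, which overlapped. NDUFS8 to NDUFS1 had a 20.3-fold range and ATP5F1D to ATP5F1B a 6.68-fold range. SDHA to SDHD ran from 0.823 to 4.21, whereas the ratio of the 2 catalytic subunits, SDHA to SDHB, ran from 1.30 to 2.07 and that of the anchors, SDHC to SDHD, from 0.918 to 1.35. The ratio of ATP5F1A to ATP5F1B, the alpha and beta subunits that form the F1 head, stayed between 0.969 and 1.15.

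**Figure D4:**
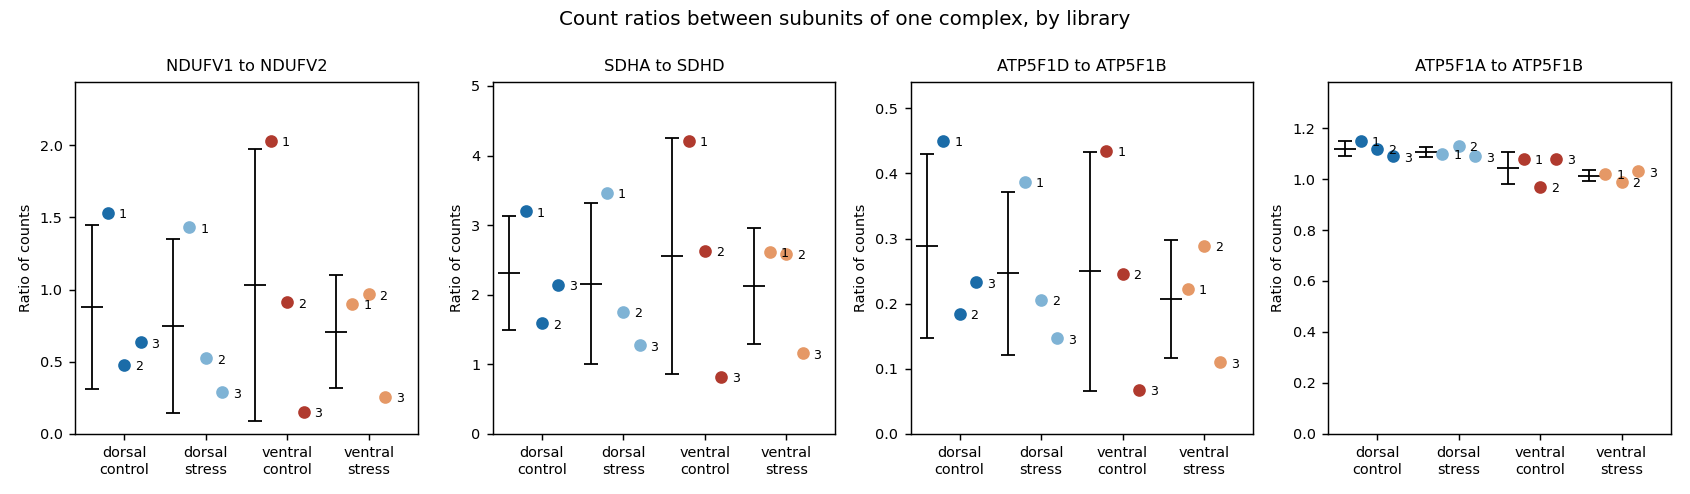
Ratio of counts (y axis) between subunits of 1 complex, with 1 point per library numbered within its group (x axis) and the group mean ± SD drawn to its left. NDUFV1 to NDUFV2, SDHA to SDHD and ATP5F1D to ATP5F1B vary 13.2-fold, 5.12-fold and 6.68-fold over the 12 libraries, and ATP5F1A to ATP5F1B 1.19-fold.

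Over all 1711 pairs of tested members the median range of a ratio was 2.53-fold, from 1.14-fold for ATP5PD to ATP5F1B to 24.9-fold for NDUFS6 to NDUFS1. In 5 pairs, or 0.292%, the ratio parted the 6 dorsal from the 6 ventral libraries. Pairs of other genes were not examined, so no share over all genes stands beside this count and it is no result about the members. ATP5F1C to ATP5F1B, the gamma subunit of the stalk against the beta subunit, was one of them, at 0.334, 0.324 and 0.319 in dorsal control and 0.318, 0.332 and 0.313 in dorsal stress, against 0.294, 0.264 and 0.281 in ventral control and 0.279, 0.300 and 0.287 in ventral stress. ATP5F1A to ATP5F1B was another, at 1.15, 1.12, 1.09, 1.10, 1.13 and 1.09 in the dorsal libraries and 1.08, 0.969, 1.08, 1.02, 0.990 and 1.03 in the ventral ones. These pairs were found by looking at the values of all pairs, so their separation is a description and was not tested.

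Genes that assemble, feed or regulate the chain were compared in the same fit, and none was called between regions or with stress. Of all tested genes 4.51% were called between regions over both conditions, and 0% with stress in either region. The counts were 0 of 26 assembly factors, 0 of 29 genes of the tricarboxylic acid (TCA) cycle and pyruvate entry, 0 of 17 of glycolysis, 0 of 13 mitochondrial carriers and porins, 0 of 18 regulators of mitochondrial biogenesis and 0 of 6 related proteins such as NDUFAB1, the acyl carrier protein of complex I. Those with the smallest p between regions were HK2, a hexokinase (-1.19 ± 0.31, edgeR adjusted p = 0.0566), OGDHL, an isoform of 2-oxoglutarate dehydrogenase (-0.59 ± 0.19, edgeR adjusted p = 0.123), the coactivator PPARGC1A (-0.59 ± 0.23, edgeR adjusted p = 0.258) and citrate synthase, CS (-0.26 ± 0.10, edgeR adjusted p = 0.271). The complex I assembly factor NDUFAF1 differed by -0.26 ± 0.12 (edgeR adjusted p = 0.358).

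The difference between the end libraries of a group, by contrast, was shared by some of these lists and not by others. For dorsal control, dorsal stress, ventral control and ventral stress its median was 0.46, 0.46, 0.74 and 0.66 over assembly factors and -0.14, -0.04, -0.09 and 0.13 over the TCA cycle genes. Regulators of biogenesis had negative medians of -0.22, -0.23, -0.54 and -0.29, but they were mixed, with 7, 8, 6 and 8 of 18 higher in the same libraries as the subunits. The nuclear receptor ESRRA, the mitochondrial RNA polymerase POLRMT and the mitochondrial DNA polymerase POLG were higher in all 4 groups, by 1.39, 1.01 and 0.92 on the log2 scale in ventral control. TFAM, which packages and transcribes mitochondrial DNA, was at 43.7, 55.3 and 80.5 CPM in ventral control and PPARGC1A at 22.6, 20.7 and 41.0 CPM. The medians closest to those of the subunits were found outside the pathway: 71 cytosolic ribosomal protein genes had medians of 0.83, 0.94, 1.46 and 1.01, and 74 mitochondrial ribosomal protein genes 0.60, 0.83, 1.24 and 0.87. Of the cytosolic ribosomal protein genes 68, 69, 68 and 69 were higher in the same libraries as the subunits.

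**Figure D5:**
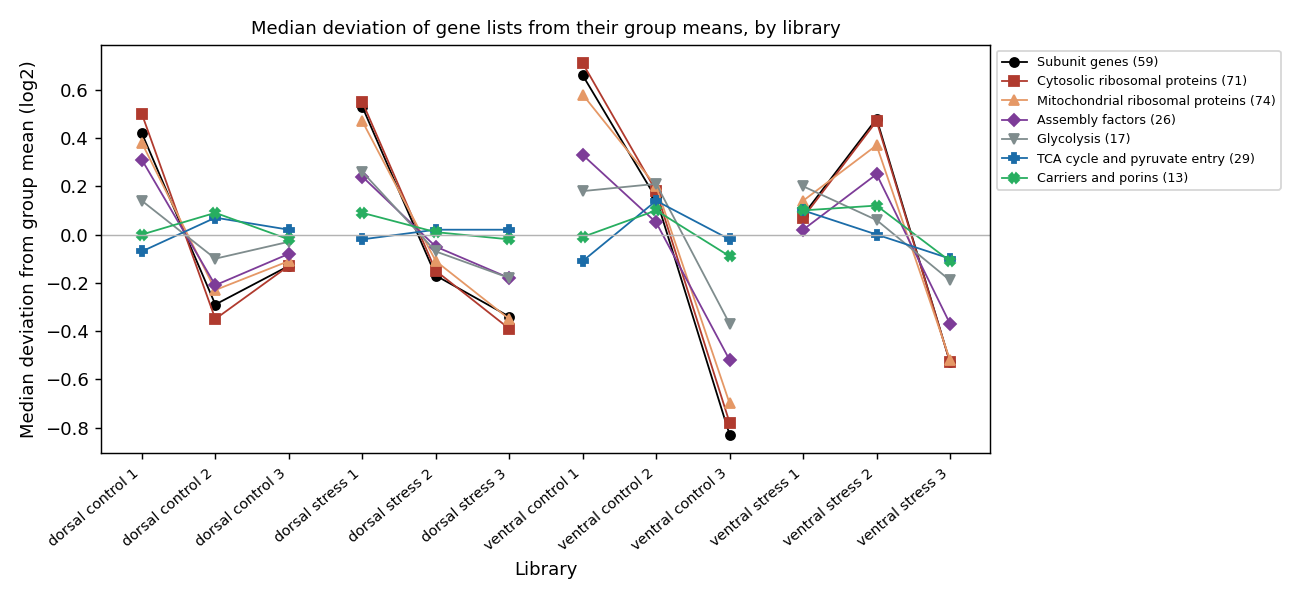
Median deviation of log2 CPM from the group mean (y axis) in each of the 12 libraries (x axis) for the 59 subunit genes and for lists of related genes, 1 line per list, joined within a group for legibility only. The subunit line lies at 0.66 in ventral control 1 and -0.83 in ventral control 3, with both ribosomal protein lists close to it.

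Markers of cell types were measured beside this spread. The 10 neuronal markers summed to 8080 to 9940 CPM in dorsal control, 8770 to 11600 in dorsal stress, 7140 to 9440 in ventral control and 7200 to 10300 in ventral stress. In each group their sum was lower in the library with the highest summed subunit level than in the library with the lowest. The sum of the 6 markers of hippocampal principal neurons went the other way, mostly through NRGN alone. It was 2713 against 1446 CPM in dorsal control and 3185 against 1371 in dorsal stress. In ventral tissue it was 2273 against 405.2 CPM in control and 1237 against 564.5 in stress. Of these 6 genes 3, 4, 4 and 3 were higher in the same libraries as the subunits. NRGN, the most abundant of them, was at 2030, 778 and 200 CPM in ventral control. In the same order of libraries as the sums it was 2200 against 894 CPM in dorsal control and 2620 against 811 in dorsal stress. In ventral stress it was 1050 against 347 CPM. NRGN, NEUROD2 and ZBTB20 were higher in all 4 groups, PROX1 and NEUROD6 were lower in all 4, and WIPF3 was mixed. The neuronal genes differed among themselves: SNAP25, of the synaptic release machinery, was at 831, 1270 and 1790 CPM in ventral control, and RBFOX3, the neuronal nuclear protein NeuN, at 144, 81.9 and 46.4 CPM. The 7 astrocyte markers had median differences between the end libraries of -0.34, -0.52, -0.62 and -0.50 in the 4 groups and summed to 15100 to 17900, 13300 to 17200, 15300 to 18200 and 13200 to 14300 CPM. The 6 microglial markers had medians of 0.58, 0.73, 0.74 and 0.42, with 4 of 6 higher in each group, and summed to 249 to 326, 236 to 299, 276 to 335 and 282 to 318 CPM. The 7 oligodendrocyte markers were mixed, with 3, 3, 5 and 3 of 7 higher in the same libraries as the subunits. They summed to 8250 to 10700 CPM in dorsal control, 6560 to 10500 in dorsal stress, 3750 to 8220 in ventral control and 4200 to 4920 in ventral stress. In ventral control their sum was 8222, 3746 and 4653 CPM, and MBP, the myelin basic protein gene, was at 4140, 1130 and 717 CPM, highest in library 1 as the subunits were. Of the 7 vascular markers 3, 5, 3 and 4 were higher, with sums of 193 to 217, 231 to 261, 234 to 247 and 229 to 279 CPM. CLDN5, of endothelial tight junctions, was higher in all 4 groups, by 2.22, 2.22, 5.31 and 2.96 on the log2 scale, and the pericyte gene RGS5 was lower in all 4, with differences of -0.92, -1.60, -1.55 and -1.04. No marker of these lists fell below the filter on low counts, and the part of cell composition or RNA quality in the spread of the subunits was not tested. Between regions, where 4.51% of all tested genes were called, edgeR called 1 neuronal marker higher and 1 lower in dorsal tissue. Of the hippocampal principal neuron markers it called 2 of 6, both higher. For the other lists the counts were 0 of 7 astrocyte, 1 of 7 oligodendrocyte (higher), 0 of 6 microglial, 0 of 7 vascular, 0 of 6 ependymal, 3 of 7 choroid plexus (higher) and 5 of 6 meningeal (lower) markers.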

How the data were processed

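The deposited table holds whole gene counts for 12 libraries. Per the labels' protocols, TriReagent was used for extraction and the TruSeq stranded mRNA kit, a poly-A selection method, for the libraries. The submitters' processing notes name featureCounts 2.0.0, SAMtools 1.9, TopHat2 2.1.1, Bowtie2 2.3.5.1, FastQC and bcl2fastq 2.20, with no roles. The treatment of reads with more than 1 match, like the build, annotation and strand setting, is not given in the sources used here. Sense and antisense reads therefore cannot be told apart, genes with close copies are uncertain, and no positions are printed. A RefSeq table of assembly ARS-UI_Ramb_v3.0 was used for names only.

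Counts were filtered with filterByExpr (17806 genes left), TMM-normalized and fitted in edgeR 4.0.16 (R 4.3.3) with robust quasi-likelihood and 1 mean per group. The 6 comparisons used F tests and Benjamini-Hochberg adjustment across the tested genes, called under 0.05. Each SE was obtained from the fold change and the F statistic. Log2 CPM used a prior count of 1. The residual factor is the first principal component of log2 CPM of genes other than the members after removal of group means. Alternatives were RLE factors, 2 other filters, DESeq2 1.42.0, limma-voom (limma 3.58.1), replicate blocks, counts thinned to 12254743, the residual factor and leaving out each library. Added after seeing the data were library totals alone, leaving out ventral control 1 and 3, and leaving out each library of the residual factor fit. The procedure was tested on simulated data.

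The members and gene lists were chosen with earlier results of these data known. Named are members called in any comparison, the 2 with the smallest p in each complex, the 20 with the smallest p between regions, c ring genes, ATP5IF1, those with the highest and lowest spread in each complex, and up to 4 genes per list by smallest p. Not all that the rule selects are printed, and NDUFS8, NDUFV1, NDUFB10, NDUFB7, ATP5ME, TFAM, ESRRA, POLRMT, POLG, SNAP25, RBFOX3, NRGN, MBP, CLDN5, RGS5, the genes compared within a complex and the pairs of ratios were chosen after their values were seen. Values of 1 member, counted among the 59, are not reported here and it is left out of the plots of single genes.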

Additional observations from a re-analysis of the deposited data

How the results depend on the processing

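The number of members called was recomputed under alternative settings of the 6 comparisons, which gave 135 counts, and it was 0 in 134 of them. The exception was the fit with the residual factor between regions, with 5 members called, and with 3 to 25 when each library was left out of that fit, where 17.3% to 33.0% of all genes were called. In the main fit 4.51% of all genes were called between regions. It called 0% of all genes for stress in either region and for the difference of the stress effects. Counts of 0 in those comparisons therefore say little about the members. Leaving out each library in turn gave 0 members called in every comparison (lowest and highest both 0). The shares of all genes called in those fits are not given here, so these counts are no result about the members. The medians of the members' log2 fold changes then ran from -0.21 to 0.13 between regions, -0.39 to 0.26 in control ewes, -0.32 to 0.22 in stressed ewes, -0.39 to 0.13 for stress in dorsal tissue, -0.49 to 0.15 in ventral tissue and -0.24 to 0.40 for the difference of the stress effects. They changed sign for 3, 2, 3, 3, 2 and 4 of the 12 libraries. Under the other alternatives they ran from -0.10 to -0.01, -0.14 to -0.02, -0.08 to -0.01, -0.11 to -0.07, -0.17 to -0.06 and -0.04 to 0.10.

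Over all genes, the calls between regions, in control and in stressed ewes were 803, 178 and 79 in edgeR, 1558, 728 and 580 in DESeq2, 3708, 1960 and 1574 with the residual factor, and 737, 193 and 27 in limma-voom. With the replicate block they were 1375, 440 and 314, with 0 members called and a median of -0.03 between regions. The same replicate numbers do not establish pairs: of 12 same-numbered pairs of libraries 10 had a correlation of deviations over 0.1, from -0.21 to 0.76 in all. Some of these pairs set control against stressed ewes and share no animal, such as ventral control 3 with ventral stress 3 at 0.76. Pairs with different numbers reached 0.66, for dorsal control 2 with ventral control 3. With a block by numbered pool the median between regions was -0.02. Without ventral control 1 and 3 the calls in control ewes were 46 and in stressed ewes 143. Low members such as ATP5MC1 (GeneID 114108664) rest on few counts. It had 63 in dorsal control 3, 74 in ventral control 2 and 90 in dorsal stress 3, the shallowest library.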
